A study of Mus musculus with 24 samples.

Results

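The 10 genes described here encode the enzymes of the tricarboxylic acid (TCA) cycle that lead to succinate, release it, oxidise it or act on the fumarate formed from it, namely Idh3a, Ogdh, Suclg1, Suclg2, Sucla2, Sdha, Sdhb, Sdhc, Sdhd and Fh1. They were chosen by name, with earlier results of these data known but by no measured threshold, and all 10 of them were found among the 34471 genes of the FPKM table and the 56691 genes of the count table. Bulk RNA-seq was carried out on distal jejunum from wild type mice and mice with a germline knockout of Ptk6, an intracellular tyrosine kinase of epithelial cells, both on a C57BL/6 background. Males and females of each genotype drank 100 mM succinate for 7 days or regular water, which gave 8 groups of 3 mice and 24 libraries, and the mice were 9 to 11 weeks old at the end. The 8 groups were wild type male control, wild type male succinate, Ptk6-/- male control, Ptk6-/- male succinate and the 4 matching female groups. The knockout is germline, so Ptk6 is lost in every tissue of the animal and not in the epithelium alone, the mice came from different litters of 1 colony, and the control groups of both genotypes received no succinate. The libraries hold RNA of the gut wall as a mixture of cells, so fewer cells of a type and less RNA per cell cannot be told apart in any value below.

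In the TCA cycle, isocitrate dehydrogenase makes oxoglutarate, the oxoglutarate dehydrogenase complex turns it into succinyl-CoA, and succinyl-CoA ligase releases succinate while making GTP or ATP. Succinate dehydrogenase, which is also complex II of the respiratory chain, oxidises succinate to fumarate and passes the electrons to ubiquinone. Fumarase then hydrates fumarate to malate. In the small intestine succinate is also a luminal metabolite of microbes, and tuft cells sense it through the receptor SUCNR1. Addition of succinate to drinking water therefore poses the question of whether transcripts of these enzymes differ between treated and control mice, and whether genotype or sex makes a difference to them.

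The genes lie on 7 chromosomes in the deposited positions, which are on the GRCm39 build. Sdhd lies at chr9:50507657-50515112, minus strand, Sdha at chr13:74470373-74498399, minus strand, Sdhb at chr4:140688514-140706504, plus strand and Sdhc at chr1:170954734-170978172, minus strand. Fh1 lies at chr1:175427940-175453201, minus strand, Ogdh at chr11:6241633-6306642, plus strand and Idh3a at chr9:54493618-54511945, plus strand. Suclg1 lies at chr6:73225365-73253894, plus strand, Suclg2 at chr6:95449990-95695781, minus strand and Sucla2 at chr14:73790105-73833582, plus strand. None of the 10 overlaps another gene on its own strand. Sdha overlaps Gm16125 and Fh1 overlaps Kmo on the opposite strand, where the highest counts in any library were 1 and 267, and the libraries were stranded. Sdha and Sdhd start head to head with a neighbour on the other strand. The distance was 29 bp between Sdha and Ccdc127 and 98 bp between Sdhd and Timm8b.

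RefSeq promoter sequences of the GRCm38 build were available for 8 of the 10 genes (not for Sdhc and Idh3a), and the 250 bases before each start were searched on both strands. The motif of NRF1, a transcription factor of nuclear genes for mitochondrial proteins, was searched as GCGCANGCGC. It was found before Sdhd, Sdha and Sucla2, thus in 3 of 8 genes, and in 3.74% of all 32851 promoters of that length. The windows are shown because Sdhd and Sucla2 are the enzymes in which female controls separated by genotype (below), and capitals mark the match, which in Sucla2 lies on the opposite strand and so reads as its reverse complement:
Sdhd chr9:50603909-50603938 minus strand: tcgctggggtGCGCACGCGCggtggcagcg
Sdha chr13:74350319-74350348 minus strand: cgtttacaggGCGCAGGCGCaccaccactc
Sdha chr13:74350276-74350305 minus strand: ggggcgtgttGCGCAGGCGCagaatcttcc
Sdha chr13:74350241-74350260 minus strand: gcgactcggtGCGCAAGCGC
Sucla2 chr14:73552759-73552785 plus strand: ctgcgtctctGCGCCTGCGCggtgccc
The match lies 69 bases before the start of Sdhd and 7 bases before that of Sucla2, and the 3 matches of Sdha lie 88 and 45 bases before its start and directly next to it. Sdha did not separate by genotype in female controls (log2 fold change -0.007, with overlap). Sdhd and Sucla2 did not pass the edgeR test there (adjusted p = 0.37 and 0.40). Sdhb, which passed there only under alternatives (below), had no NRF1 match. The ETS core CCGGAAG was found before Sdhd alone among the 8 and in 6.91% of all promoters, and TCAAGGTCA, a site of estrogen-related receptors, before none of the 8 and in 0.387% of all promoters. No 2 motifs overlapped in these genes. A match is a description of the letters and shows no binding.

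Total counts were between 8080321 and 52824743 per library. Ptk6 had 284 to 2405 counts in the wild type libraries and 7 to 61 in the Ptk6-/- libraries, so the genotype labels held in all 24. The sex label did not hold in 1 library. Summed over 4 Y-linked genes, wild type female succinate 2 was at 74.3 CPM, whereas the other 11 libraries labelled female were at 0.97 CPM or less and the 12 male libraries at 33.5 to 90.2 CPM. Enterocyte markers were abundant in every library (summed over 9 genes, at least 17666 CPM, which are counts scaled to library size). Several libraries stand apart. In wild type male control 1, 51.2% of counts came from the ribosomal gene Rn18s-rs5, and in Ptk6-/- male succinate 1, which had the lowest total, 29.7%. The library labelled wild type female succinate 2 held, besides Y-linked transcripts at the level of males, those of heart muscle: 12 heart markers summed to 24752 CPM there and to at most 257 CPM in any other library, and Myh6, the atrial and ventricular myosin of the mouse heart, was at 9018 CPM against at most 44.2 CPM elsewhere. Of the 12 heart markers, 11 were highest in that library, and Myl7, an atrial marker, was not. Heart muscle is rich in TCA cycle enzymes, and the main differences below that turn on this library are given with and without it. Ptk6-/- female control 3 differed from the other two of its group in several enzymes and had the highest enterocyte sum of all libraries (55879 CPM, against 21591 and 28090 in its group). Wild type male succinate 1 had an enterocyte sum of 19334 CPM, against 44076 and 35832 in its group, and a slope of log2 CPM on gene length of 0.137, against -0.107 and -0.077. Wild type female succinate 3 had a tuft cell marker sum of 120.0 CPM, against 380 and 344 in its group.

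Levels of different genes were compared in FPKM, which is per length of transcript. All 10 enzymes were well expressed: their mean FPKM lay between the 81.6th (Suclg2) and 98.2th (Sdhd) percentile of the genes tested. Sdhd (membrane anchor of succinate dehydrogenase) and Ogdh (the E1 subunit of the oxoglutarate dehydrogenase complex) had the highest means, at 105 and 97.1 FPKM over 24 libraries. Sdhd was above Ogdh in 12 of 24 libraries, so their order was not fixed. Sdha (the flavoprotein that oxidises succinate, 66.4 FPKM) and Sdhb (the iron-sulfur subunit, 63.6 FPKM) followed, and Sdha was above Sdhb in 13 of 24 libraries. Sdhc, the other membrane anchor, had a mean of 47.9 FPKM and was below Sdhb in all 24. The remaining 5 were lower than each of the succinate dehydrogenase genes in all 24 libraries. Suclg1 (the shared alpha subunit of succinyl-CoA ligase) had 23.99 FPKM, Sucla2 (the ATP-forming beta subunit) 22.2, Fh1 (fumarase) 15.8, Idh3a (the catalytic subunit of NAD-dependent isocitrate dehydrogenase) 12.9 and Suclg2 (the GTP-forming beta subunit) 8.24. Suclg2 was below Sucla2 in every library. For all 10 enzymes the lowest FPKM was in Ptk6-/- male succinate 1 and the next lowest in wild type male control 1, the libraries with the most ribosomal counts.

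**Figure D1:**
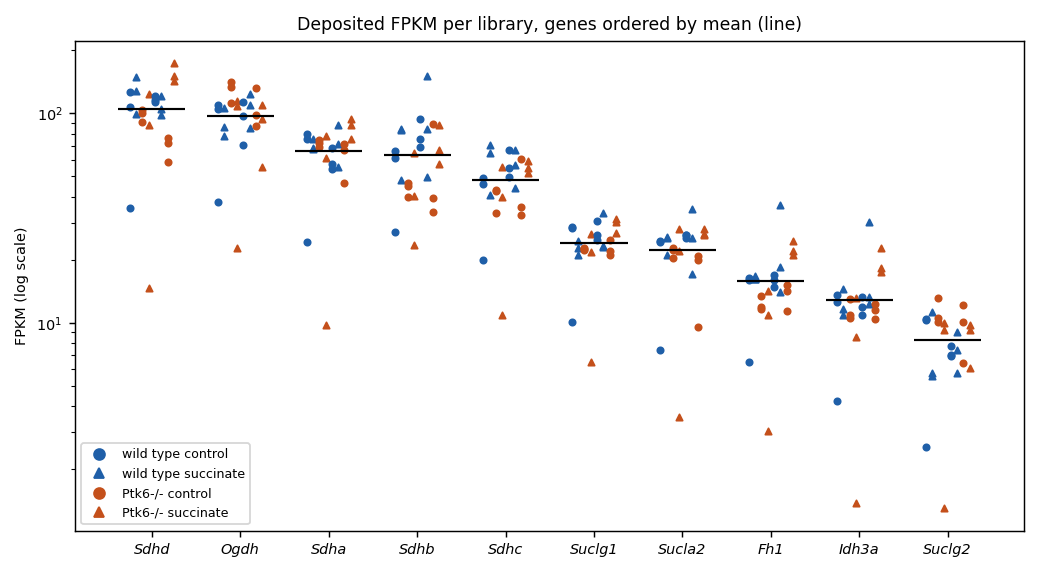
Deposited FPKM (vertical axis, log scale) of the 10 enzyme genes in 24 libraries, with genes ordered by their mean (black line), blue for wild type, orange for Ptk6-/-, circles for control and triangles for succinate. The succinate dehydrogenase genes and Ogdh sit above the other 5 (means of 47.9 to 105 against 8.24 to 23.99 FPKM), and the isolated low points are Ptk6-/- male succinate 1 and wild type male control 1.

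From here on levels are in CPM after TMM normalization, which scales libraries to each other by most of their genes. Between mice of 1 group, Suclg1 varied least (SD of 0.21 on the log2 scale, pooled over groups) and Sdhb most (0.58). The highest group mean exceeded the lowest by 1.32-fold for Sdha and by 2.42-fold for Sdhb. Sdhd ranged from 114 ± 4.85 CPM (SD, n = 3) in Ptk6-/- female controls to 230.2 ± 45.8 CPM in Ptk6-/- females after succinate. Idh3a ranged from 60.2 ± 29.0 CPM in Ptk6-/- males after succinate to 129.8 ± 75.0 CPM in wild type females after succinate, where the SD comes from the library with heart transcripts (216 CPM, against 88.2 and 84.9). That library was the highest of all 24 for Sdha, Sdhb, Fh1, Suclg1, Sucla2 and Idh3a. Ptk6-/- male succinate 1 was the lowest of all 24 for Sdha, Sdhd, Fh1, Suclg2, Sucla2 and Idh3a.

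The enzymes that make succinyl-CoA and release succinate spanned unlike ranges. Ogdh was at 594, 719 and 763 CPM in wild type male controls and 695, 901 and 1039.5 CPM in Ptk6-/- male controls, with overlap. Its lowest library was Ptk6-/- female succinate 2 (395 CPM) and its highest Ptk6-/- male control 3 (1039.5 CPM). Suclg1 was the steadiest, with group means from 129 ± 9.57 CPM in Ptk6-/- male controls to 176 ± 24.1 CPM in wild type female controls. Suclg2 was at 34.1, 60.4 and 61.2 CPM in wild type male controls and 69.0, 57.6 and 65.3 CPM in Ptk6-/- male controls, and it was at 44.1, 46.8 and 49.5 CPM in wild type female controls and 65.6, 59.0 and 48.9 CPM in Ptk6-/- female controls. The genotypes overlapped in both sexes.

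**Figure D2:**
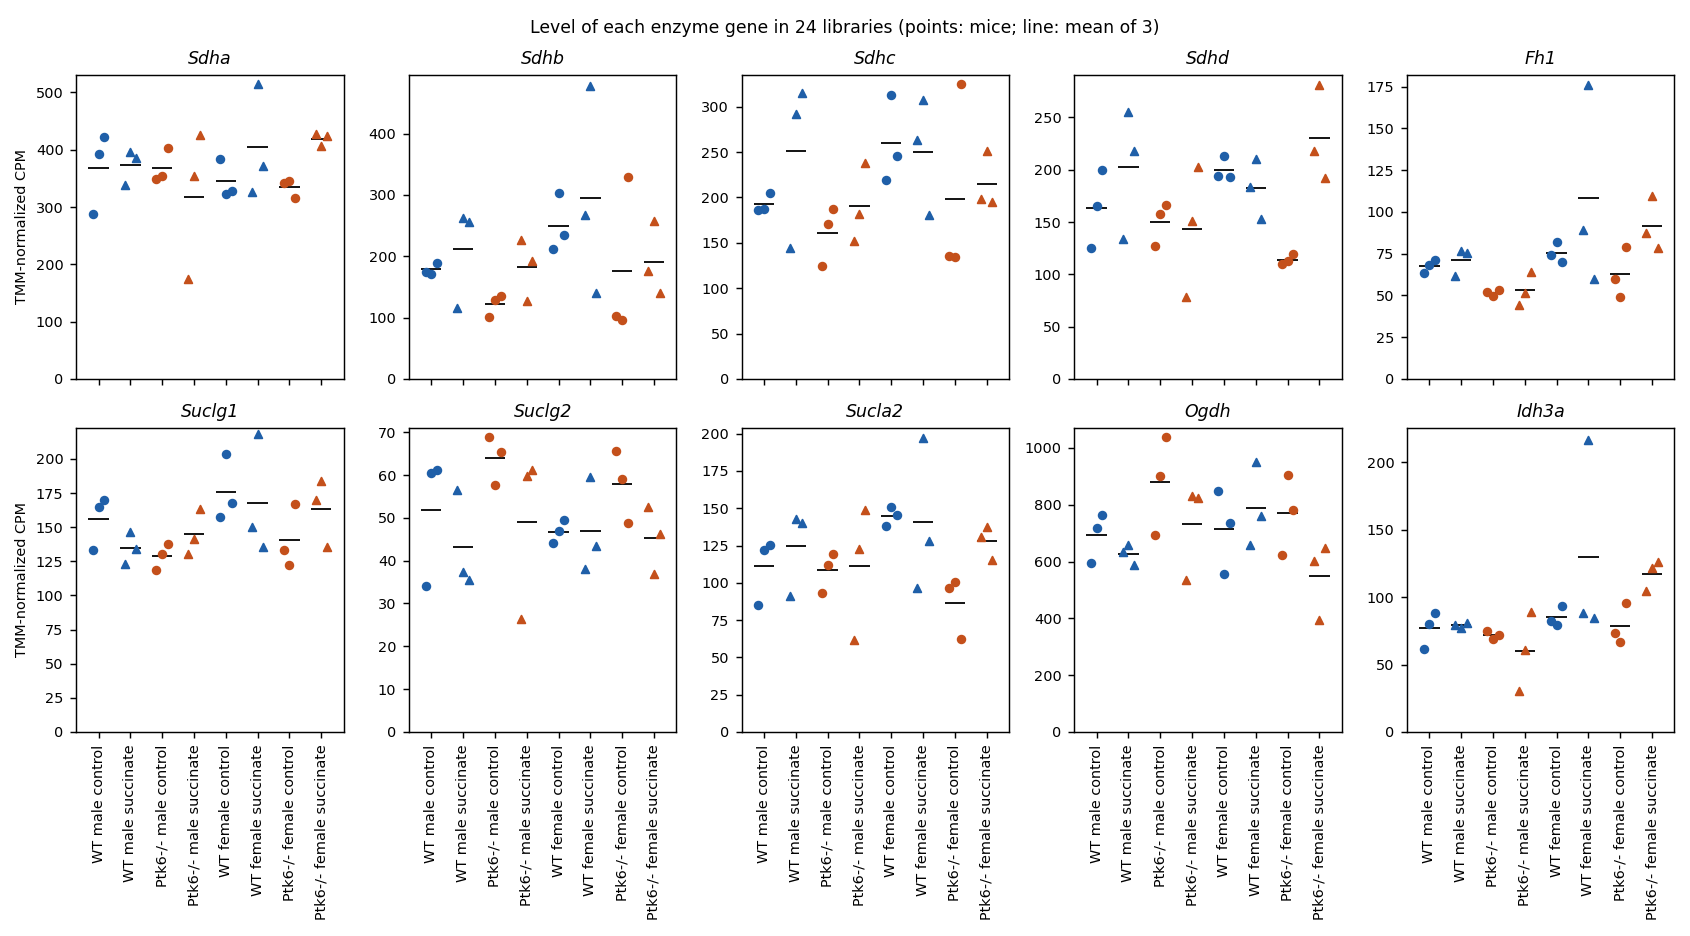
TMM-normalized CPM (vertical axis, from 0) of each enzyme gene in the 8 groups, with 1 point per mouse, the mean of 3 as a line, blue for wild type, orange for Ptk6-/-, circles for control and triangles for succinate. Ptk6-/- female controls (109.8 to 119 CPM) lie below Ptk6-/- females on succinate (192 to 281 CPM) for Sdhd, and the single high triangle for Idh3a (216 CPM) is the library with heart transcripts.

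The effect of succinate was examined first, within each sex and genotype. No enzyme passed the test, which was edgeR's quasi-likelihood test with Benjamini-Hochberg adjustment over all genes (adjusted p under 0.05 and at least a 2-fold change), in any of the 4 groups. DESeq2 likewise called 0 of 10 here and in each comparison below. The clearest difference was that of Sdhd in Ptk6-/- females. In 3 control Ptk6-/- females Sdhd was at 109.8, 113 and 119 CPM and in 3 treated ones at 218, 281 and 192 CPM. All treated mice were above all controls (log2 fold change 0.99, SE 0.27, 95% interval 0.37 to 1.61, unadjusted p = 0.0064, adjusted p = 0.35). The adjusted value misses the threshold. With voom and sample quality weights in limma, Sdhd had an adjusted p of 0.040 (log2 fold change 0.92, short of 2-fold). It was the only 1 of the 10 under 0.05 by that tool, against 1.31% of all genes. In the other groups Sdhd did not separate: it was at 194, 213 and 193 CPM in wild type female controls and at 184, 209.8 and 153 CPM after succinate (log2 fold change -0.12).

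Ptk6-/- females also had 3 other enzymes whose groups did not overlap, all higher after succinate. Sdha was at 342, 346 and 316 CPM in controls and 427, 406 and 424 CPM after succinate (log2 fold change 0.30, SE 0.26, adjusted p = 0.71). Sucla2 was at 96.7, 100.3 and 62.5 CPM in controls and 131, 137 and 115 CPM after succinate (log2 fold change 0.54, SE 0.28, adjusted p = 0.52). Idh3a was at 73.0, 66.9 and 95.8 CPM in controls and 104, 121 and 126 CPM after succinate (log2 fold change 0.55, SE 0.26, adjusted p = 0.49). Thus 4 of 10 enzymes did not overlap, against 21.2% of all genes tested in this comparison. Fh1, with 1 control among the treated mice, was at 60.0, 48.9 and 79.3 CPM and 87.5, 109.6 and 78.2 CPM (log2 fold change 0.52). Ogdh went the other way, at 623, 905 and 782 CPM in controls and 602, 395 and 649 CPM after succinate (log2 fold change -0.51, SE 0.34, adjusted p = 0.61). Of the 10, 1 (Sdhd) had an unadjusted p under 0.05, against 10.7% of all genes, and 0 were called, against 0.0879% of all genes. The median of the 10 log2 fold changes was 0.24, beside -0.04 over all genes. Without Ptk6-/- female control 3 this median was 0.50, since Sdhb then had 0.92 in place of 0.09 (adjusted p = 0.30) and Sdhc 0.64 in place of 0.09 (adjusted p = 0.30), while Sucla2 had 0.35 in place of 0.54. The summed markers of other cell types also differed in this comparison. Enterocyte markers were at 21591, 28090 and 55879 CPM in controls and 21205, 17666 and 18188 CPM after succinate, lower without overlap. Tuft cell markers were at 36.4 to 49.8 CPM in controls and 179 to 399.9 CPM after succinate, higher without overlap. Smooth muscle markers were 2392 to 5558 CPM in these controls and 4290.3 to 5962 CPM after succinate. Lung markers were low, at 11.8 to 19.5 CPM in controls and 7.70 to 11.5 CPM after succinate, without overlap, and the part of these lists in the result was not tested.

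In wild type females, the enzymes with the largest mean differences were Idh3a and Fh1. Fh1 was at 74.0, 82.1 and 69.9 CPM in controls and 89.0, 176 and 60.1 CPM after succinate (log2 fold change 0.53, SE 0.39, adjusted p = 0.77). Idh3a had a log2 fold change of 0.62 (SE 0.39, adjusted p = 0.73). Both rest on the library with heart transcripts: without it the log2 fold changes were 0.06 for Idh3a and 0.02 for Fh1. The median over the 10 was 0.09 with all libraries and -0.18 without that one, so its sign rests on 1 library. Of the 10 enzymes, 0 did not overlap between the groups (13.3% of all genes) and 0 were called (0% of all genes), with 0 at an unadjusted p under 0.05. Without wild type female succinate 3, genes called over the whole table went from 0 to 597, and 0 of the 10 enzymes were called.

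In males, no enzyme separated treated from control mice with all libraries. In wild type males the log2 fold changes lay between -0.27 (Suclg2) and 0.37 (Sdhc), with a median of 0.05 beside 0.02 over all genes (-0.01 without wild type male control 1). Sdhc was at 186, 188 and 205 CPM in controls and 144, 292 and 315 CPM after succinate, with the treated mice on both sides of the controls. Wild type male succinate 1 decided this: without it Sdhb had 0.50 (adjusted p = 0.034) in place of 0.24, and Sdhc 0.62 (adjusted p = 0.021) in place of 0.37, both short of 2-fold. Genes called over the whole table then went from 0 to 1077, and the share under the adjusted p alone is not given for that fit. With voom and sample quality weights and all libraries, 3 of the 10 (Sdhb, Sdhc and Suclg2) had an adjusted p under 0.05, also short of 2-fold, against 22.9% of all genes. The 95% interval lay within 2-fold for 9 of 10 enzymes. In Ptk6-/- males the largest difference was that of Sdhb, at 101, 129 and 135 CPM in controls and 227, 127 and 192 CPM after succinate (log2 fold change 0.63, SE 0.29, adjusted p = 0.60). The value of 227 CPM is Ptk6-/- male succinate 1, and without it the log2 fold change was 0.36. The median was 0.00, and between -0.24 and 0.17 when 1 library at a time was left out, and 7 of 10 intervals lay within 2-fold. In both comparisons 0 enzymes were called (0% of all genes in each), 0 had an unadjusted p under 0.05, and 0 did not overlap, against 8.77% of all genes in wild type males and 23.0% in Ptk6-/- males.

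Averaged over sex and genotype in the fit of 24 libraries, 8 of 10 enzymes had a positive log2 fold change with succinate and 2 a negative one (Suclg2 and Ogdh). Fh1 had 0.30 (SE 0.14, unadjusted p = 0.048, adjusted p = 0.31) and Sdhd 0.28 (SE 0.15, adjusted p = 0.35). Suclg2 had -0.25 (SE 0.15, adjusted p = 0.41). The median of the 10 was 0.18 (0.10 without the library with heart and Y-linked transcripts), beside -0.00 over all genes, and 0 of 10 were called, against 0.728% of all genes. In this average the 95% intervals of all 10 lay within 2-fold, from -0.55 to 0.76 on the log2 scale at the extremes. Without the library with heart transcripts, Fh1 had 0.17. With voom and sample quality weights, 5 of the 10 (Sdhb, Sdhc, Sdhd, Fh1 and Suclg2) had an adjusted p under 0.05, none with a 2-fold change, against 24.8% of all genes.

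The effect of genotype in control mice was then compared. In males, Sdhb and Fh1 were the enzymes that separated. Sdhb was at 174, 172 and 189 CPM in wild type and 101, 129 and 135 CPM in Ptk6-/- male controls (log2 fold change -0.57, SE 0.14, 95% interval -0.88 to -0.26, unadjusted p = 0.0029, adjusted p = 0.054). Fh1 was at 63.7, 68.5 and 71.0 CPM in wild type and 51.9, 49.8 and 53.2 CPM in Ptk6-/- male controls (log2 fold change -0.41, SE 0.10, 95% interval -0.63 to -0.18, unadjusted p = 0.0029, adjusted p = 0.054). Every Ptk6-/- male was below every wild type male for these 2, but neither passed the adjusted threshold or reached 2-fold. Suclg1 was at 134, 165 and 170.0 CPM and 119, 130.3 and 138 CPM, with overlap (log2 fold change -0.29, unadjusted p = 0.039, adjusted p = 0.17). Ogdh and Suclg2 had positive values, 0.33 and 0.29, and the other 8 negative ones. In all, 2 of 10 enzymes did not overlap against 31.4% of all genes, 3 of 10 had an unadjusted p under 0.05 against 25.2% of all genes, and 0 were called against 0.739% of all genes. The 95% intervals of all 10 lay within 2-fold. DESeq2 gave Sdhb and Fh1 an adjusted p under 0.05 (log2 fold changes -0.55 and -0.39), as it did 9.21% of the genes it tested. By voom with sample quality weights 4 of the 10 had one, of which Sdhb, Fh1 and Suclg1 were negative and Ogdh positive, against 23.4% of all genes. The slope of log2 CPM on gene length was -0.090 to -0.003 in the wild type and 0.109 to 0.180 in the Ptk6-/- male controls, without overlap. With an offset for it the values were -0.45 for Sdhb (adjusted p = 0.12) and -0.39 for Fh1 (adjusted p = 0.10), and genes called over the whole table went from 142 to 40. Leaving out 1 library at a time gave between 2 (Ptk6-/- male control 3) and 211 (wild type male control 1) genes called. Goblet cell markers summed to 7795 to 8865 CPM in the wild type and 10429 to 13232 CPM in the Ptk6-/- male controls, without overlap. Tuft cell markers summed to 43.6 to 48.4 CPM and 39.3 to 43.0 CPM, also without overlap, and the part of these in the result was not tested. On log2(FPKM + 1) the differences were -0.13 for Sdhb and 0.02 for Fh1, where wild type male control 1 is at 6.52 FPKM for Fh1 against 16.1 and 16.4 in its group. Without that library the count-based values were -0.54 and -0.41.

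In female controls, Sdhd and Sucla2 separated. Sdhd was at 194, 213 and 193 CPM in wild type females and at 109.8, 113 and 119 CPM in Ptk6-/- females (log2 fold change -0.78, SE 0.21, 95% interval -1.26 to -0.30, unadjusted p = 0.0058, adjusted p = 0.37). These are the same 3 Ptk6-/- control mice as in the succinate comparison above, so the 2 differences share them. Sucla2 was at 138, 151 and 145 CPM and 96.7, 100.3 and 62.5 CPM (log2 fold change -0.70, SE 0.26, 95% interval -1.30 to -0.11, unadjusted p = 0.026, adjusted p = 0.40). Thus 2 of 10 did not overlap, against 18.9% of all genes, both lower in Ptk6-/-, 2 had an unadjusted p under 0.05, against 11.1% of all genes, and 0 were called, against 0.0158% of all genes. The median of the 10 was -0.26, beside 0.04 over all genes, and -0.41 without Ptk6-/- female control 3, -0.11 without Ptk6-/- female control 2 and -0.16 without wild type female control 2. Enterocyte markers summed to 45430 to 52027 CPM in the wild type female controls and to 21591, 28090 and 55879 CPM in the Ptk6-/- ones. Lung markers were low in both, at 2.54 to 3.29 CPM and 11.8 to 19.5 CPM, without overlap. B cell follicle markers were at 9.76 to 17.4 CPM in wild type and 21.7 to 56.7 CPM in Ptk6-/- female controls, and heart markers at 49.1 to 79.3 CPM and 22.1 to 48.7 CPM, both without overlap. The part of these in the result was not tested.

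Sdhb in the same comparison turned on 1 mouse. It was at 212, 303 and 235 CPM in wild type and 103, 95.4 and 329 CPM in Ptk6-/- female controls (log2 fold change -0.49, SE 0.49, adjusted p = 0.73). Without Ptk6-/- female control 3, the log2 fold change was -1.28 (adjusted p = 0.027), which passes, and genes called over the whole table went from 3 to 1808. Sucla2 had -0.50 without it. With voom and sample quality weights, 4 of the 10 (Sdhb, Sdhc, Sdhd and Sucla2) had an adjusted p under 0.05, against 22.2% of all genes, and 1 (Sdhb) was called, against 10.7% of all genes called by voom. Without that mouse Sdhd was also under the adjusted threshold (-0.79, adjusted p = 0.031), as was Sdhc (-0.89 in place of -0.36, adjusted p = 0.038), both short of 2-fold. The share of all genes under that threshold in this fit is not given, so these enzymes cannot be set against it. That mouse was high for Sdhb and Sdhc (325 CPM, against 136 and 135) and low for Sucla2 (62.5 CPM), while its Sdhd (119 CPM) was that of its group. It differed from its group in the trend of counts with gene length too (slope -0.102, against 0.083 and 0.149) and in enterocyte markers, as given above, and the part of these in its values was not tested.

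After succinate, the genotypes differed in no enzyme by the test. In males the log2 fold changes lay between -0.47 (Sdhd, -0.22 without Ptk6-/- male succinate 1 and -0.77 without Ptk6-/- male succinate 3) and 0.25 (Ogdh), with standard errors of 0.27 to 0.42. Only 1 of 10 intervals (that of Suclg1) lay within 2-fold, so the other 9 intervals include a 2-fold difference. In females they lay between -0.61 (Sdhb) and 0.34 (Sdhd). The value for Sdhb rests on the library with heart and Y-linked transcripts, which was at 477 CPM, against 267 and 141 in its group. Without it Sdhb had -0.12, Fh1 0.28 in place of -0.22 and Idh3a 0.42 in place of -0.13, and the median of the 10 was 0.17 in place of -0.13. Ogdh did not overlap, at 659, 952 and 758 CPM in wild type and 602, 395 and 649 CPM in Ptk6-/- females (log2 fold change -0.51, SE 0.36, adjusted p = 0.93). Enterocyte markers were also lower in these Ptk6-/- females (17666 to 21205 CPM, against 27099 to 36397 CPM in wild type), without overlap, and their part in Ogdh was not tested. In treated males goblet cell markers summed to 8608 to 10047 CPM in wild type and 11317 to 14164 CPM in Ptk6-/-. Tuft cell markers were at 74.1 to 104 and 35.9 to 72.7 CPM, and B cell follicle markers at 82.4 to 95.3 and 10.9 to 30.5 CPM. The genotypes did not overlap in these sums, and their part in the values of males was not tested. Of the 10, 0 did not overlap in males against 8.66% of all genes, and 1 in females against 10.8%. In both comparisons 0 enzymes had an unadjusted p under 0.05, and 0 were called, as for 0% of all genes. By voom with sample quality weights 1 enzyme (Suclg2, in males) had an adjusted p under 0.05, against 17.8% of all genes there.

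Averaged over sex and treatment, 8 of 10 enzymes had a negative value in Ptk6-/- mice. Sdhb had a log2 fold change of -0.48 (SE 0.22, unadjusted p = 0.046, adjusted p = 0.37) and Fh1 of -0.33 (SE 0.14, unadjusted p = 0.032, adjusted p = 0.35). Without the library with heart and Y-linked transcripts these were -0.34 and -0.19. Suclg2 and Ogdh had positive values, 0.19 and 0.04. The median was -0.23, beside -0.03 over all genes, and -0.12 without wild type male control 1, Ptk6-/- male succinate 1 and wild type female succinate 2. Of the 10, 0 were called, against 0.0184% of all genes. In the voom fit 5 of the 10 (Sdhb, Sdhc, Sdhd, Fh1 and Suclg2) had an adjusted p under 0.05, against 40.4% of all genes.

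**Figure D3:**
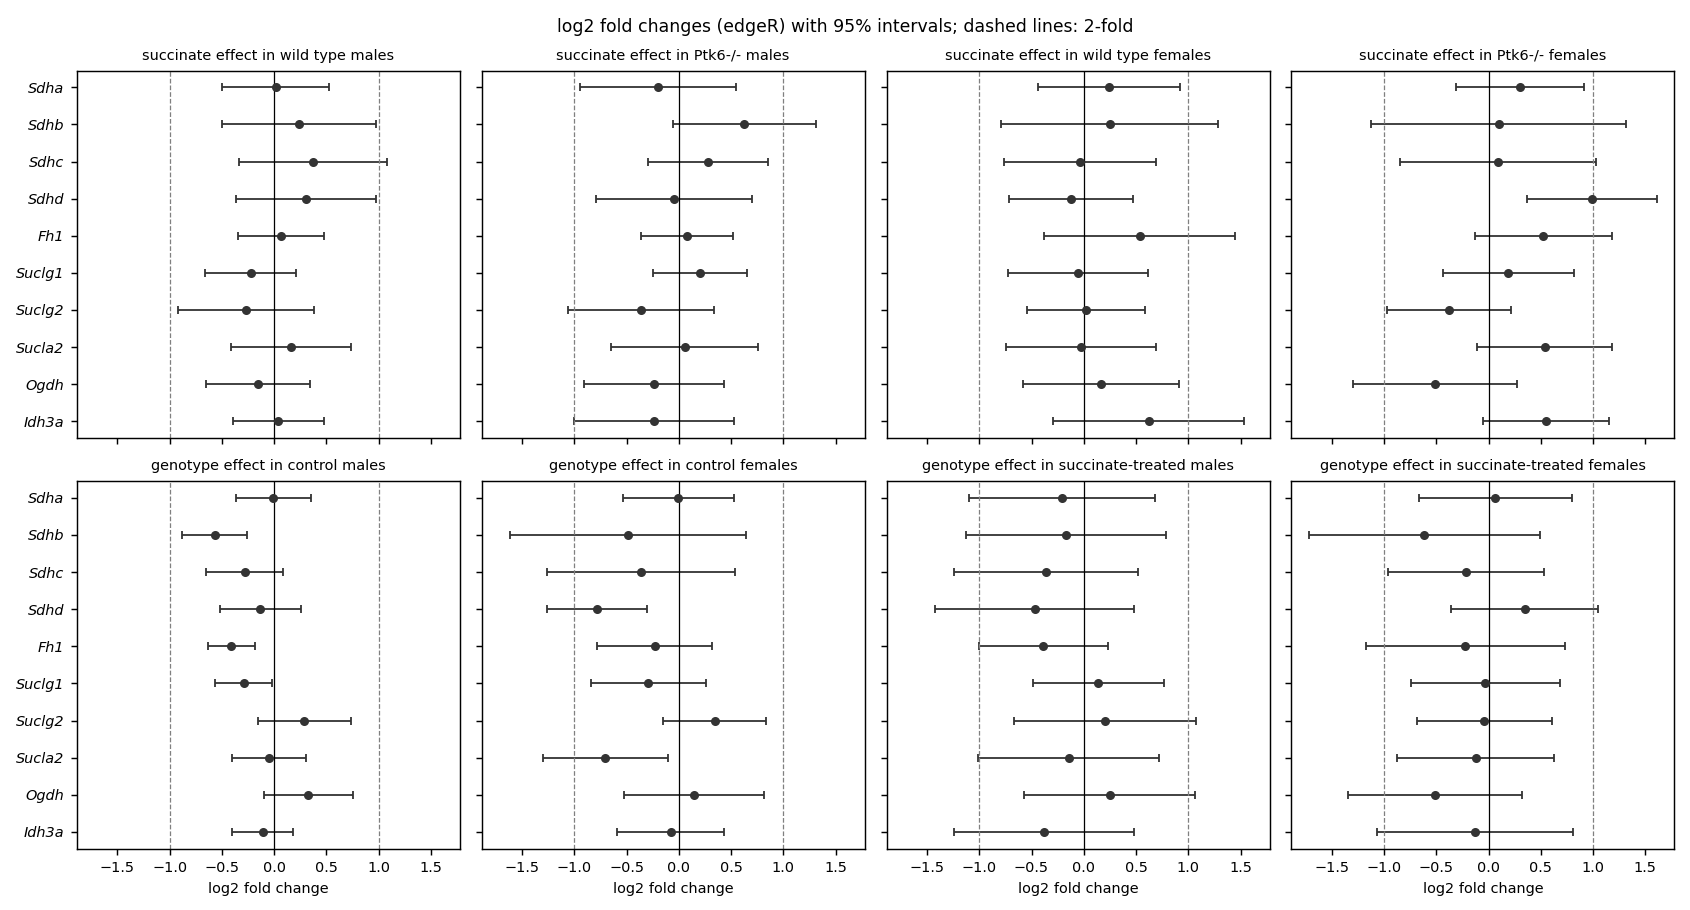
log2 fold change (horizontal axis) with its 95% interval from edgeR for each enzyme gene in the 8 comparisons of 2 groups of 3 mice, with the upper row showing succinate minus control, the lower row Ptk6-/- minus wild type, and dashed lines at 2-fold. The intervals that exclude 0 are Sdhd in Ptk6-/- females (0.37 to 1.61), Sdhb, Fh1 and Suclg1 in control males, and Sdhd and Sucla2 in control females, none of which passed the adjusted threshold.

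Whether the succinate effect depended on genotype was tested as an interaction. In females, Sdhd had an interaction of 1.15 on the log2 scale (SE 0.42, 95% interval 0.28 to 2.02, unadjusted p = 0.012, adjusted p = 0.49), which did not pass, so a difference between the genotypes in their response is not shown. The other 9 lay between -0.64 (Ogdh) and 0.60 (Sucla2). Without the library with heart and Y-linked transcripts, Sdhd had 1.27 and Sucla2 0.93, Fh1 had 0.56 in place of 0.03, Idh3a 0.55 in place of -0.04 and Sdhb 0.41 in place of -0.12. Without Ptk6-/- female control 3 instead, Sdhb had 0.69 and Sdhc 0.70 in place of 0.16. In males the 10 lay between -0.37 (Sdhd, -0.06 without Ptk6-/- male succinate 1 and -0.70 without Ptk6-/- male succinate 3) and 0.38 (Suclg1), and 0 had an unadjusted p under 0.05. The intervals of only 3 enzymes in males and 3 in females lay within 2-fold. In both interactions 0 enzymes and 0% of all genes were called.

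In the average over genotype and treatment, the female minus male difference was positive for 8 of 10 enzymes, and none passed the test. The female arm includes the library whose Y-linked transcripts were at the level of males. Idh3a had a female minus male difference of 0.48 (SE 0.17, unadjusted p = 0.0080, adjusted p = 0.18) and Fh1 of 0.45 (SE 0.14, unadjusted p = 0.0046, adjusted p = 0.15). Without that library these were 0.34 and 0.32, and the median of the 10 was 0.11 in place of 0.15 (0.09 without Ptk6-/- male succinate 1). Without wild type female succinate 3 instead, Fh1 had 0.53 (adjusted p = 0.022), short of 2-fold. For that fit the share of all genes under an adjusted p of 0.05 is not given. Sdha, Sdhd, Suclg2, Sucla2 and Ogdh had differences of at most 0.11 in size. Of the 10, 0 were called, against 0.360% of all genes. In the voom fit 1 of the 10 (Fh1) had an adjusted p under 0.05, against 8.19% of all genes.

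Succinyl-CoA ligase pairs the alpha subunit of Suclg1 with either beta subunit, Sucla2 for ATP or Suclg2 for GTP. The ratio of the FPKM of Sucla2 to that of Suclg2, in which the scaling of the library cancels, was between 1.48 and 4.59 over 24 libraries. It was 3.59 ± 0.166 (SD, n = 3) in wild type female controls and 1.72 ± 0.244 in Ptk6-/- female controls. In male controls it was 2.54 ± 0.310 in wild type and 1.98 ± 0.364 in Ptk6-/-. In each sex all Ptk6-/- controls were below all wild type controls. After succinate the ratio in Ptk6-/- females was 2.88 to 4.32, above their controls at 1.48 to 1.97, and in Ptk6-/- males 2.39 to 2.82, above 1.57 to 2.25. In wild type mice, treated and control values overlapped in both sexes. The ratio was chosen after its genes' values were seen, and 3 against 3 cannot go below p = 0.10 in an exact two-sided permutation test, so these are given as values without a test. The summed beta subunits stood to Suclg1 at 0.725 to 1.49, with a median of 1.32.

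Within succinate dehydrogenase the anchors were compared in the same way. The ratio of Sdhd to Sdhc was 2.60 to 2.95 in Ptk6-/- females after succinate, and 2.34 to 2.71 in Ptk6-/- male controls, which overlap it. In the female Ptk6-/- controls it was 0.967 to 2.21. Sdhd has the shortest transcript of the 10 (relative to the median gene, 0.339, and 0.894 for Sdhc), and libraries differed in the trend of counts with gene length. With an offset for that trend the succinate difference of Sdhd in Ptk6-/- females was 0.87 and the genotype difference in control females -0.59, in place of 0.99 and -0.78.

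**Figure D4:**
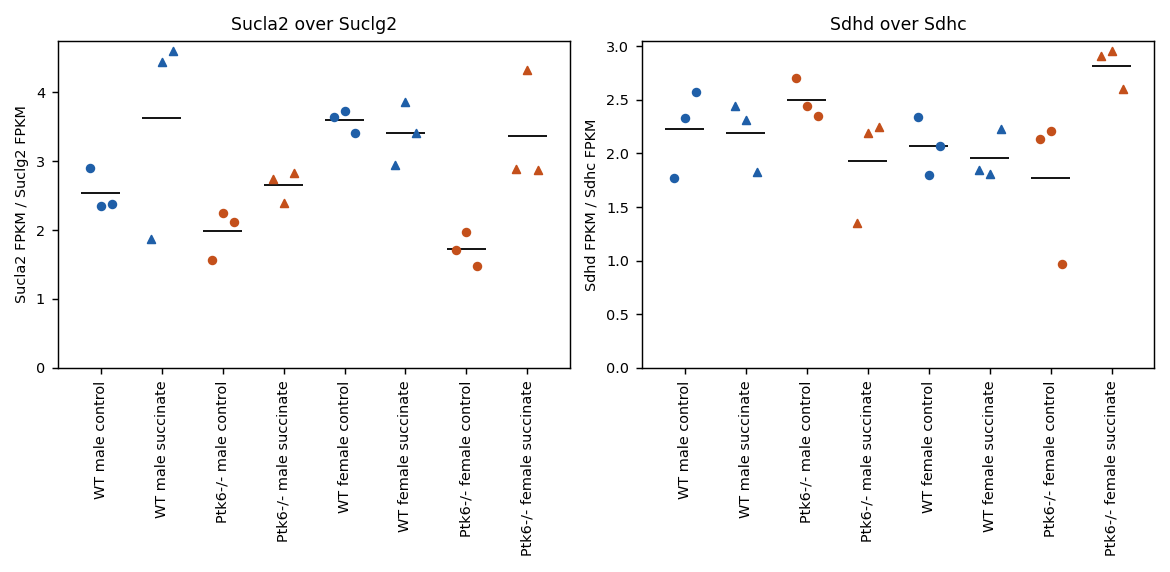
Ratios of FPKM within a library (vertical axes, from 0) of Sucla2 to Suclg2 and of Sdhd to Sdhc, with 1 point per mouse, the mean of 3 as a line, blue for wild type, orange for Ptk6-/-, circles for control and triangles for succinate. Ptk6-/- female controls have the lowest mean of Sucla2 to Suclg2 (1.72), and Ptk6-/- females on succinate the highest mean of Sdhd to Sdhc (2.82).

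The enzymes were set beside other genes of the pathway, in lists chosen with earlier results of these data known. Of the 8 other TCA cycle enzymes, 0 were called in any of the 13 comparisons. With succinate, in the average over sex and genotype, their median log2 fold change was 0.13, beside that of the 10 (0.18). Mdh2, which oxidises malate, had log2 fold change 0.36, SE 0.16, adjusted p = 0.26. The 17 measured subunits of the other respiratory chain complexes had a median of 0.57, with 17 of 17 positive and 12 at an unadjusted p under 0.05, against 16.1% of all genes, though 0 were called. It was 0.52 with the length offset and 0.41 without wild type male control 1, Ptk6-/- male succinate 1 and wild type female succinate 2. In Ptk6-/- against wild type mice, averaged over sex and treatment, these subunits had a median of -0.42, with 0 of 17 positive and 0 called, and the 10 enzymes -0.23. The wild type side of this contrast includes the library with heart transcripts, and the median of the subunits is given only with it. The difference between the lists was not tested. Summed tuft cell markers were at most 60.4 CPM in controls and up to 399.9 CPM after succinate. With succinate, enterocyte markers were lower in females of both genotypes and higher in Ptk6-/- males, each without overlap, and overlapped in wild type males. The part of these markers in the medians was not tested.

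The 4 assembly factors of succinate dehydrogenase (Sdhaf1 to Sdhaf4), which load flavin and iron-sulfur clusters onto the complex, had a median of 0.46 with succinate in the same average, 0.25 without the 3 libraries, and 0 were called. Sdhaf1, which serves the iron-sulfur subunit, had log2 fold change 1.03, SE 0.26, adjusted p = 0.055, and DESeq2 gave it an adjusted p of 0.0040. Its control and treated mice overlapped in wild type males (16.4 to 25.6 and 16.7 to 83.0 CPM) and wild type females (28.2 to 55.1 and 33.7 to 79.1 CPM). They also overlapped in Ptk6-/- females (15.7 to 31.3 and 29.0 to 74.1 CPM). In Ptk6-/- males they did not (12.4 to 17.0 and 21.6 to 59.0 CPM), as for 23.0% of all genes there. Among the 7 genes of other routes into succinate, 1 was called, against 0.728% of all genes: Oxct1, which takes CoA from succinyl-CoA to activate ketone bodies and so releases succinate, rose with succinate (log2 fold change 1.03, SE 0.18, adjusted p = 0.0037). It was at 82.0 to 102 CPM in Ptk6-/- female controls and 219 to 409.9 CPM after succinate, at 101 to 117 and 128 to 469 CPM in wild type females, and at 75.5 to 94.9 and 107 to 213 CPM in wild type males. In Ptk6-/- males controls (84.8 to 97.4 CPM) and treated mice (69.1 to 124 CPM) overlapped. Without the 3 libraries its adjusted p was 0.0094, and on log2(FPKM + 1) 0.15. Of 5 genes of succinate transport and sensing, 4 were measured highly enough in the 24-library fit and 1 was called, against the same 0.728%: Sucnr1, the succinate receptor, rose (log2 fold change 1.75, SE 0.38, adjusted p = 0.026). Its group means went from 0.579 to 3.31 CPM in Ptk6-/- females, from 0.512 to 2.50 CPM in wild type females and from 0.270 to 1.10 CPM in wild type males, and were 0.302 and 0.309 CPM in Ptk6-/- males. The call was lost in 7 of 24 fits that each left out 1 library (adjusted p of 0.051 to 0.070), namely wild type male control 2, wild type male succinate 3, Ptk6-/- male controls 1 and 3, Ptk6-/- male succinate 3, Ptk6-/- female control 2 and Ptk6-/- female succinate 3. Summed tuft cell markers were at most 60.4 CPM in controls and up to 399.9 CPM after succinate, and their part in Sucnr1 was not tested.

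**Figure D5:**
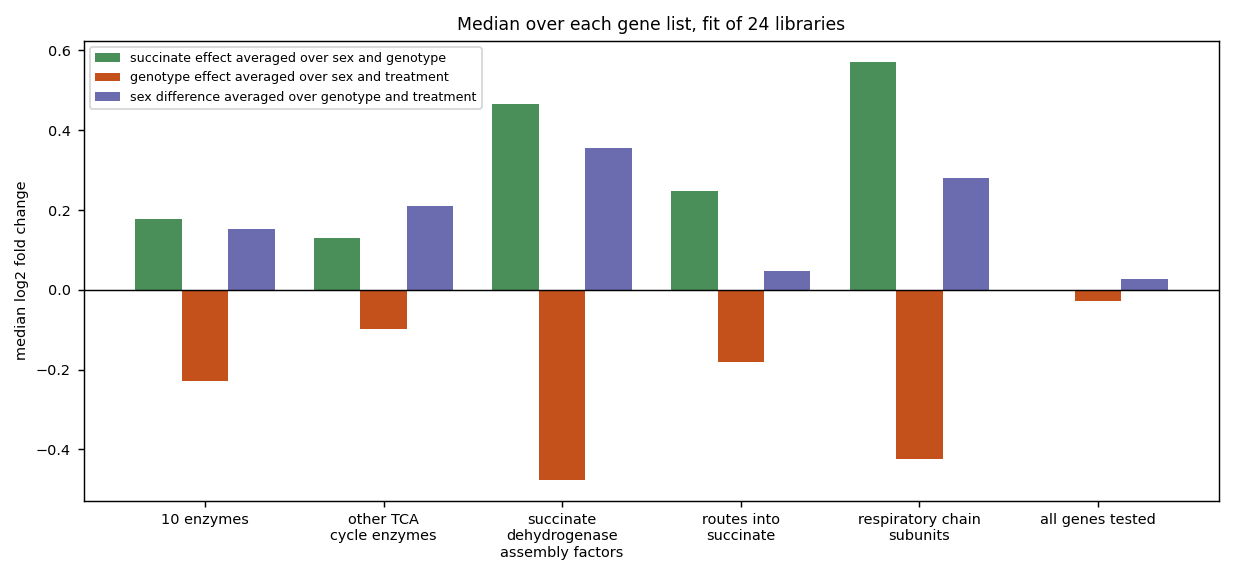
Median log2 fold change (vertical axis) of the 10 enzyme genes, of 4 other lists and of all genes tested, for the averaged succinate effect (green), the averaged genotype effect (orange) and the averaged female minus male difference (purple), from the fit of 24 libraries. The 10 enzymes (0.18, -0.23 and 0.15) have the same signs as the respiratory chain subunits (0.57, -0.42 and 0.28), and the bars carry no error. All bars include the library with heart and Y-linked transcripts.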

How the data were processed

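Total RNA from distal jejunum was sequenced as stranded poly(A) libraries, with 3 mice in each of 8 groups. Per the study's methods and the submitters' processing notes, the authors trimmed reads with Cutadapt, aligned them with HISAT2 and assembled and quantified them with StringTie on GRCm39. The program behind the deposited count table is not given in the sources used here. The deposited counts are whole reads per gene, not normalized, and the deposited FPKM values are fragments scaled to transcript length and library size, as computed by the authors with StringTie. FPKM divides by a total that includes ribosomal reads, and CPM before scaling does so too.

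Counts were tested with edgeR 4.0.16 (TMM, glmQLFit and glmQLFTest, R 4.3.3) for genes that reached 10 counts in 3 or more of the libraries fitted, with p-values adjusted over all genes (Benjamini-Hochberg). A call needed an adjusted p under 0.05 and a 2-fold change. The 8 comparisons of 2 groups used their own 6 libraries, and the 3 averages and 2 interactions used all 24. Between-mouse spread is the error throughout, and the total counts (8080321 to 52824743) leave at least 96 counts for each enzyme in each library, so that counting error is small beside it. Alternatives were DESeq2 1.42.0, limma 3.58.1 on voom values with sample weights or on log2(FPKM + 1) and log2(FPKM + 0.1) (mean FPKM of at least 0.5, or no filter), other scaling and filters, a gene length offset, the replicate number as a block and the omission of libraries. The length offset removes each library's linear trend of log2 CPM with the log2 of gene length, the length being derived from counts over FPKM. Scripts were tested on simulated data. All 10 enzymes are named in the text, and of other genes those in lists of the pathway. The enzymes, the lists and the doubted libraries were chosen with earlier results of these data known. No pair of libraries of a group agreed within sampling noise (chi-square per degree of freedom of at least 28.3).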

Additional observations from a re-analysis of the deposited data

Results flagged for a closer look

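In wild type female succinate 2, 12 heart muscle markers summed to 24752 CPM, where no control library exceeded 79.3 CPM, and 4 skeletal muscle markers summed to 1173 CPM, where no control exceeded 39.2 CPM. Each is a signal outside the enzymes measured and over 10 times the highest control library. The same library, labelled female, had 74.3 CPM summed over 4 Y-linked genes, a level seen otherwise in males. Idh2, a TCA cycle enzyme abundant in heart, reached 697 CPM in wild type females after succinate, against 94.7 to 112.9 CPM in their controls.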

How the results depend on the processing

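The count of enzymes called was 0 in 341 of 343 alternative values over the 13 comparisons. In both exceptions it was 1, which was Sdhb in the genotype effect in control females, with voom and sample quality weights (log2 fold change -1.13) and without Ptk6-/- female control 3 (-1.28). Leaving out 1 library at a time thus gave 0 to 1 calls there and 0 in the other comparisons. Of 3300 alternative log2 fold changes of single enzymes, 255 had the opposite sign, none of them called either way; the causes were not tested. Counts of all genes called depended on the tool: for the averaged succinate effect they were 158 with edgeR, 384 with DESeq2 and 877 with voom, and for the genotype effect in control females 3, 175 and 2044. Replicate numbers did not pair the mice (correlations of same-numbered deviations from -0.51 to 0.36), and with the replicate block 0 enzymes were called in each comparison. The spread of group means was a median of 1.70-fold over the enzymes in FPKM and 1.64-fold in CPM. With 3 mice a group, standard errors of 0.10 to 0.53 on the log2 scale in the 2-group fits limit what can be seen. The medians of the other gene lists under alternatives were added after the data were seen.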

Other observations

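Slc13a2, an apical dicarboxylate transporter of enterocytes that takes up succinate, was at 185 to 214 CPM in wild type male controls and 97.4 to 124 CPM after succinate. In wild type females it was at 239.7 to 348 CPM in controls and 7.75 to 157 CPM after succinate, and in Ptk6-/- females at 191 to 254 and 3.20 to 111 CPM. In these 3 comparisons the groups did not overlap, as was the case for 8.77%, 13.3% and 21.2% of all genes. In Ptk6-/- males controls (196 to 228 CPM) and treated mice (136 to 249.8 CPM) overlapped. The averaged succinate effect did not pass (log2 fold change -1.34, SE 0.43, adjusted p = 0.15, edgeR). Summed enterocyte markers were at 45430 to 52027 CPM in control and 27099 to 36397 CPM in treated wild type females, and at 21591 to 55879 CPM in control and 17666 to 21205 CPM in treated Ptk6-/- females, both without overlap. In wild type males they were at 30323 to 32107 CPM in controls and 19334, 44076 and 35832 CPM after succinate, with overlap. The part of these markers in the values of Slc13a2 was not tested.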
